A study of Mus musculus with 6 samples.

Results

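Molecular chaperone genes were examined in bulk RNA-Seq of mouse gastrocnemius/plantaris (GP) muscle. The set comprised the HSP70 and HSP110 genes, the HSP90 genes, the BAG cofactors, the J-domain genes of classes A, B and C, the subunits of the cytosolic chaperonin TRiC, the mitochondrial chaperonin pair Hspd1 and Hspe1, the heat shock factor Hsf1 and the myosin chaperone Unc45b. The rule that defines the members uses gene symbols only. Of 24421 genes in the count files, 82 were members, and 74 of these passed the filter on low counts and were tested among 14180 genes. No count was recorded in any library for 3 members (Dnajb8, Dnajc22 and Dnajc5b), and a further 5 had too few counts to test (Dnajb13, Dnajb3, Dnajb7, Dnajc5g and Dnajc6).

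The muscle came from male mice of 5 months of age, 3 months after tamoxifen, and the labels give B6C3F1 as the strain background, while the methods add that founders were crossed to C57BL/6N. Of the libraries, 3 are labelled Ctrl and 3 are labelled cKO. In the study, Ctrl stands for mice homozygous for the floxed Net39 allele (Net39 fl/fl) that carry no Cre. The label cKO stands for mice that also carry HSA-CreERT2. Both groups carry the floxed allele and received tamoxifen. The Cre is driven by the human skeletal actin promoter, so the allele is targeted in muscle fibers and not in the other cells of the tissue. Net39 is listed as Ppapdc3, whose counts were 310, 321 and 217 where the label is Ctrl and 5365, 4340 and 6080 where it is cKO. The targeted gene thus went against the labels, being higher in the libraries labelled cKO by 4.22 ± 0.17 on the log2 scale (SE, edgeR adjusted p = 0.000161). Groups are therefore named throughout as the libraries labelled Ctrl and labelled cKO, and every direction below rests on those labels. Whole libraries held 33860001 to 48839910 counts. Of 6 skeletal muscle fiber markers, 5 (Actn3, Ckm, Myh4, Mylpf and Tnnt3) were higher in the libraries labelled cKO, by 0.60 to 1.58 on the log2 scale, and Acta1 was not called (0.19). Acta1 stood at 29977 to 40531 CPM (the usual unit of counts relative to library size, here scaled with TMM factors) in all 6 libraries, whereas the cardiac markers Nppa and Tnni3 stayed at or below 0.364 CPM. Myh6, the remaining gene on the cardiac list, stood at 659, 323 and 177 CPM where the label is Ctrl and at 39.5, 71.3 and 0.25 CPM where it is cKO.

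HSP70 proteins bind unfolded segments of client proteins and release them in a cycle driven by ATP. J-domain proteins deliver clients and trigger ATP hydrolysis, BAG and HSP110 proteins release the nucleotide, and HSP90 and TRiC take over clients that need further folding, among them kinases, actin and tubulin. Heat shock factor 1 induces a subset of these genes when misfolded protein accumulates, and in muscle BAG3 and UNC45B serve the upkeep of sarcomeres and the folding of myosin.

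The libraries labelled Ctrl had higher levels of the inducible HSP70 genes, of Hsp90aa1 and of several of their cofactors. With TMM factors, 7 class C J-domain genes had higher levels where the label is cKO, a result that depended on the scaling. Of these 7, only Dnajc12 and Dnajc21 kept their call with total counts alone, and 7 other class C genes were then called higher where the label is Ctrl. Of the 74 members tested, 15 were higher in the libraries labelled Ctrl and 10 in those labelled cKO at an edgeR adjusted p under 0.05, and 49 were not called. Of all genes tested, 11.8% were higher in the libraries labelled Ctrl and 12.6% in those labelled cKO by the same rule. With a fold over 2 required as well, 5 members were higher in the libraries labelled Ctrl (Hspa1b, Hspa1a, Hspa2, Dnaja4 and Hsp90aa1) and 1 in those labelled cKO (Cct8l1), against 3.92% and 2.13% of all genes. Cct8l1 had too few counts in the libraries labelled Ctrl to remain where at least 10 counts in every library were required, so that its call is no support for a direction. The 2 groups did not overlap in 38 of the 74 members, against 43.9% of all genes. The median log2 fold change (labelled cKO over labelled Ctrl) was -0.08 over the members and -0.02 over all genes. When libraries were scaled by total counts alone, the median of all genes moved to -0.27, and 34 members were called higher in the libraries labelled Ctrl and 4 in those labelled cKO, against 28.7% and 4.75% of all genes under that scaling. Of the 74 members tested, 18 changed sign under that scaling, though none (0) of the 25 called members did. Hspa8, Hsp90ab1, Hsp90b1, Hsf1, Hspe1 and Dnajb1, described below as not called, were among those called higher in the libraries labelled Ctrl under total counts (adjusted p = 0.0141 to 0.0389). Without the library labelled cKO 3, 9 members were higher in the libraries labelled Ctrl and 6 in those labelled cKO.

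**Figure D1:**
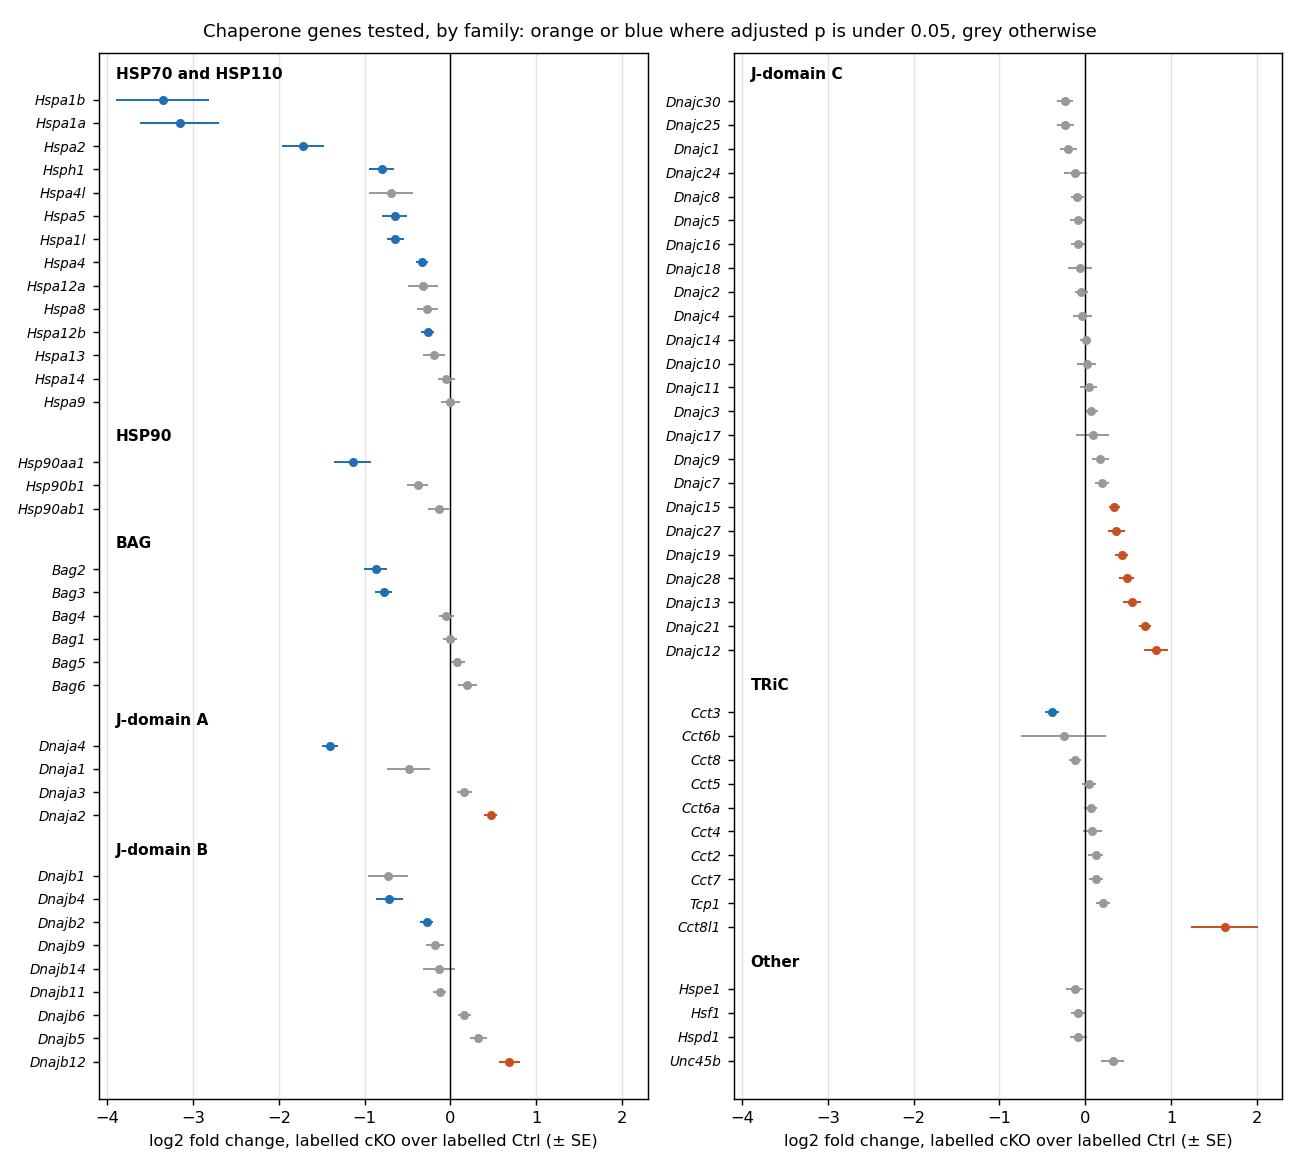
Log2 fold change (labelled cKO over labelled Ctrl) of each of the 74 members tested, with its SE, grouped by family. Blue and orange points have an edgeR adjusted p under 0.05; the 15 blue points lie to the left, led by Hspa1b at -3.35 and Hspa1a at -3.15, and 7 of the 10 orange points are class C J-domain genes.

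The strongest differences lay in the HSP70 and HSP110 family, whose ATPases form the core of the chaperone cycle. Of its 14 members, 8 were higher in the libraries labelled Ctrl, 0 were higher in those labelled cKO and 6 were not called. Hspa1b, one of the neighbouring genes for inducible HSP70, stood at 125, 59.7 and 139.6 CPM across the libraries labelled Ctrl 1, 2 and 3 and at 6.29, 19.3 and 6.11 CPM in those labelled cKO 1, 2 and 3. Every library labelled Ctrl exceeded every library labelled cKO, with Ctrl 2 the lowest of its group and cKO 2 the highest of its own. The log2 fold change was -3.35 ± 0.54 (SE, n = 3 per group, edgeR adjusted p = 0.00734), a 10.2-fold difference that became 17.6-fold (-4.14 on the log2 scale) without cKO 2. Hspa1a, the other of these genes, followed with 144, 62.9 and 128 CPM across the libraries labelled Ctrl and 9.57, 20.6 and 7.57 CPM in those labelled cKO. Its groups did not overlap either, and the same libraries, Ctrl 2 and cKO 2, lay nearest each other. The log2 fold change was -3.15 ± 0.46 (SE, edgeR adjusted p = 0.00544).

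Hspa1a and Hspa1b share most of their sequence, so their counts are uncertain gene by gene. In the GENCODE M21 transcripts, 61.7% of the 75-base windows of Hspa1a and 55.8% of those of Hspa1b also occurred in the transcript of another gene, mainly of each other. How reads that match several places were counted is not given in the sources used here. The summed level of both genes was 220.1 ± 84.4 CPM (SD, n = 3) over the libraries labelled Ctrl and 23.2 ± 14.6 CPM in those labelled cKO, a ratio of 9.50. That ratio depends on cKO 2, whose sum was 39.9 CPM against 15.9 CPM in cKO 1 and 13.7 CPM in cKO 3. On GRCm38, Hspa1b lies at chr17:34956436-34959238 and Hspa1a at chr17:34969190-34972156, both on the minus strand and each with 1 exon. Hspa1l, a relative best known from testis, starts on the plus strand beside them at chr17:34972703-34979285. It stood at 59.0, 50.2 and 49.0 CPM across the libraries labelled Ctrl and 33.9, 36.0 and 31.2 CPM in those labelled cKO (log2 fold change -0.64 ± 0.10, SE, edgeR adjusted p = 0.00632). Its exons overlap Gm10501 on the opposite strand over 71.9% of their length, and without a stated use of strand in counting the 2 genes cannot be told apart.

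The promoters of the paired HSP70 genes are shown because these genes differed most. Each line gives the 150 bases before the start (RefSeq, GRCm38.p6, minus strand), and capitals mark a pair of inverted GAA units with 2 bases between them (GAANNTTC or TTCNNGAA), the building block of a heat shock element. Hspa1a is shown from chr17:34972157-34972306 and Hspa1b from chr17:34959239-34959388.
Hspa1a: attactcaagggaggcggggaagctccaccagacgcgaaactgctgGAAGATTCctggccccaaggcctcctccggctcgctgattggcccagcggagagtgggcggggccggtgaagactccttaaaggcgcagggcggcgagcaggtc
Hspa1b: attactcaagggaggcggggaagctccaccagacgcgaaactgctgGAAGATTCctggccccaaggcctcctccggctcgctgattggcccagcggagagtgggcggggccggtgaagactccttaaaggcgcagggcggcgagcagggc
The stretches were identical at 149 of 150 bases, and each held 1 pair of units.

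The other called members of the family differed less. Hspa2, an HSP70 that is abundant in testis, stood at 32.5, 33.0 and 17.1 CPM across the libraries labelled Ctrl and at 8.01, 8.05 and 9.02 CPM in those labelled cKO. Its groups were separate, with Ctrl 3 the lowest of its group, and the log2 fold change was -1.72 ± 0.25 (SE, edgeR adjusted p = 0.00523). Hsph1, the heat-inducible HSP110 that acts as a nucleotide exchange factor, stood at 178, 119 and 138 CPM against 84.9, 85.7 and 78.8 CPM, without overlap (log2 fold change -0.80 ± 0.15, SE, edgeR adjusted p = 0.0106). Hspa4, an HSP110 relative, and Hspa12b, a distant HSP70 known from endothelium, were called with log2 fold changes of -0.33 and -0.26. The call of Hspa4 was lost without Ctrl 1, Ctrl 2 or cKO 3, and that of Hspa12b in each of the 6 fits without a library. The abundant constitutive HSP70, Hspa8, stood at 1504, 1198 and 1431 CPM against 1238, 1032 and 1165 CPM. Its groups overlapped and it was not called (log2 fold change -0.27 ± 0.13, SE, edgeR adjusted p = 0.166). For Hspa8, 62.4% of the windows also occurred in other transcripts, mostly pseudogenes, which makes its count uncertain. Hspa4l, Hspa12a, Hspa13 and Hspa14 were not called either, with log2 fold changes from -0.69 to -0.05.

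Hspa5 (BiP), the HSP70 of the endoplasmic reticulum, stood at 242, 209 and 291 CPM across the libraries labelled Ctrl and 146, 182 and 145 CPM in those labelled cKO. No library of one group entered the range of the other, and cKO 2 came nearest to the libraries labelled Ctrl. The log2 fold change was -0.65 ± 0.15 (SE, edgeR adjusted p = 0.0213), and the call was lost without Ctrl 1 (adjusted p = 0.0638), without cKO 1 (0.0707) or without cKO 3 (0.0734). It was the 1 member called of the 8 listed for this compartment, a list that does not hold Dnajb12, of its membrane, described below. Hsp90b1 (GRP94), the HSP90 of the endoplasmic reticulum, stood at 160.4, 134 and 178 CPM against 111, 132 and 119 CPM and missed the threshold (log2 fold change -0.38 ± 0.12, SE, edgeR adjusted p = 0.059). Its groups were separate by a narrow margin between Ctrl 2 and cKO 2, and it was called without Ctrl 2 (adjusted p = 0.0441) or cKO 2 (0.0434), with DESeq2's Wald test (0.0342) and with total counts alone (0.0173). Dnajc3 (p58IPK), a J-domain cofactor of BiP, stood at 54.6, 51.3 and 56.8 CPM against 55.1, 60.0 and 55.9 CPM, with overlap and no call (log2 fold change 0.07 ± 0.07, SE, edgeR adjusted p = 0.508). The other members of the compartment, Hspa13, Dnajb9, Dnajb11, Dnajc1 and Dnajc10, had log2 fold changes from -0.20 to 0.02. The summed level of the 8 genes was 647.7 ± 75.5 CPM (SD, n = 3) over the libraries labelled Ctrl and 509.8 ± 42.4 CPM in those labelled cKO (two-sided exact permutation p = 0.1, the smallest that 3 against 3 allows). The sum over all members was 9765 ± 521 against 8824 ± 451 CPM (exact p = 0.2).

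Hspa9 (mortalin), the HSP70 of mitochondria, was level between the groups in its mean, at 600.2, 555 and 469.9 CPM against 554, 543 and 529 CPM. The groups overlapped and the log2 fold change was 0.00 ± 0.11 (SE, edgeR adjusted p = 0.998). Its clients in the matrix pass on to the chaperonin of Hspd1 (HSP60) and Hspe1 (HSP10). Hspd1 stood at 238, 197 and 196 CPM against 195.1, 210.0 and 193 CPM, and Hspe1 at 63.3, 56.5 and 49.7 CPM against 52.6, 52.1 and 50.8 CPM. Both overlapped between groups and neither was called (log2 fold changes -0.08 and -0.12, edgeR adjusted p = 0.597 and 0.381). For Hspd1 and Hspe1, 31.0% and 29.1% of the windows also occurred in other transcripts.

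Of the 3 HSP90 genes, 1 was called. Hsp90aa1, which encodes the stress-inducible cytosolic HSP90 alpha, stood at 139.9, 88.2 and 142 CPM across the libraries labelled Ctrl and 51.9, 69.5 and 46.2 CPM in those labelled cKO. No library of one group entered the range of the other, and again Ctrl 2 and cKO 2 lay nearest each other. The log2 fold change was -1.14 ± 0.22 (SE, edgeR adjusted p = 0.0126). For Hsp90aa1, 45.4% of the windows also occurred in pseudogenes. Hsp90ab1, which encodes the constitutive HSP90 beta, stood at 1722, 1600.2 and 1767 CPM against 1697, 1331 and 1610.5 CPM. Those groups overlapped and the gene was not called (log2 fold change -0.13 ± 0.12, SE, edgeR adjusted p = 0.461). Per kilobase of merged exons, Hsp90ab1 (566 against 516 CPM per kilobase, mean of the libraries labelled Ctrl and cKO) and Hspa8 (320.0 against 266) were the most abundant members in both groups. By this level Hspa1b moved from 38.6 to 3.78 CPM per kilobase, from rank 17 to rank 59 of the 82 members, or from rank 28 to rank 63 per kilobase of the longest coding transcript.

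BAG proteins promote nucleotide exchange on HSP70 and tie it to other machinery. Of the 6 members, 2 were higher in the libraries labelled Ctrl and 4 were not called. Bag3, which directs damaged sarcomere proteins to autophagy, stood at 384, 334 and 317 CPM across the libraries labelled Ctrl and 212, 201 and 189 CPM in those labelled cKO. The groups were far apart relative to their spread (log2 fold change -0.78 ± 0.10, SE, edgeR adjusted p = 0.00394). Bag2, which restrains the ubiquitin ligase CHIP, stood at 37.3, 34.4 and 30.8 CPM against 17.9, 21.9 and 16.2 CPM, also without overlap (log2 fold change -0.87 ± 0.13, SE, edgeR adjusted p = 0.00609). Bag1, Bag4, Bag5 and Bag6 had log2 fold changes from -0.05 to 0.20.

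Among the 11 members taken from general knowledge as heat-inducible, 5 were higher in the libraries labelled Ctrl (Hspa1a, Hspa1b, Hsp90aa1, Hsph1 and Bag3) and 6 were not called. All 11 had a log2 fold change below 0, against 51.7% of all genes tested, with a median of -0.73; Hspd1 turned to 0.019 without Ctrl 1. Hsf1, whose product drives this response, stood at 55.2, 55.8 and 55.4 CPM against 58.1, 49.1 and 50.1 CPM. Its groups overlapped and its log2 fold change was -0.08 ± 0.08 (SE, edgeR adjusted p = 0.508). Dnajb1, the class B partner of inducible HSP70, stood at 38.8, 20.9 and 27.1 CPM against 14.0, 20.2 and 18.3 CPM and was not called (log2 fold change -0.73 ± 0.24, SE, edgeR adjusted p = 0.0629), but was without Ctrl 2 (0.0408), with DESeq2's Wald test (0.0152) and with total counts alone (0.0288). Dnaja1, a class A partner of HSP70, stood at 80.0, 50.7 and 95.1 CPM against 47.7, 68.3 and 45.1 CPM, with overlap because of Ctrl 2 and cKO 2 (log2 fold change -0.49 ± 0.25, SE, edgeR adjusted p = 0.195). For Dnaja1, 24.6% of the windows also occurred in other transcripts. The summed level of the 11 genes was 4278 ± 435 CPM (SD, n = 3) over the libraries labelled Ctrl and 3376 ± 252 CPM in those labelled cKO (two-sided exact permutation p = 0.1). Most of this sum came from Hspa8 and Hsp90ab1, which are described above as constitutive. Their means were 1377.5 and 1696.3 CPM over the libraries labelled Ctrl and 1144.8 and 1546.1 CPM in those labelled cKO.

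**Figure D2:**
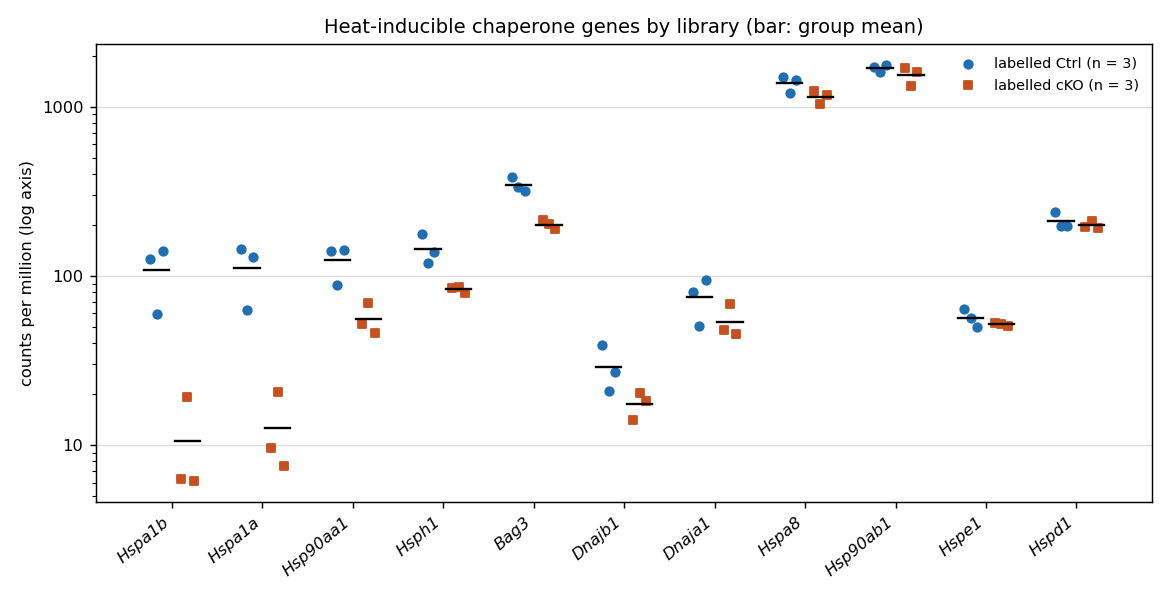
Level of the 11 heat-inducible members in each library, in CPM on a log axis, ordered by log2 fold change; circles are libraries labelled Ctrl, squares libraries labelled cKO, and bars the group means (n = 3). Hspa1a and Hspa1b separate the groups most widely, whereas Hspa8, Hsp90ab1, Hspd1, Hspe1 and Dnaja1 overlap.

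The libraries Ctrl 2 and cKO 2 recurred as the nearest of the opposite groups, a pattern noticed after the values were seen. Ctrl 2 was the lowest of its group and cKO 2 the highest of its own in 6 of the 15 members higher in the libraries labelled Ctrl (40%), against 339 of 1668 such genes over all genes (20.3%). It held for 6 of the 11 heat-inducible members and for 14 of the 74 members tested (18.9%), against 2028 of all 14180 genes tested (14.3%).

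Class A and B J-domain proteins carry substrates to HSP70, and class C proteins share only the J domain and act at many sites in the cell. Of the 37 J-domain genes tested, 9 were higher in the libraries labelled cKO, 3 in those labelled Ctrl and 25 were not called. With libraries scaled by total counts alone, 3 were called higher where the label is cKO (Dnajb12, Dnajc12 and Dnajc21) and 13 where it is Ctrl, against 4.75% and 28.7% of all genes. Classes A and B went both ways. Dnaja4, a class A cochaperone of cytosolic HSP70, stood at 290.1, 288 and 303 CPM across the libraries labelled Ctrl and 121, 112 and 100.2 CPM in those labelled cKO. The libraries within each group lay close together and the groups were far apart (log2 fold change -1.40 ± 0.09, SE, edgeR adjusted p = 0.000627). Exons of Dnaja4 overlap Wdr61 on the opposite strand over 44.1% of their length; Wdr61 itself was counted at 13.9 to 15.4 CPM and was not called (log2 fold change -0.04). Dnaja2, a constitutive gene of the same class, stood at 212, 212 and 215 CPM against 312, 284 and 288 CPM, higher in each library labelled cKO (log2 fold change 0.47 ± 0.08, SE, edgeR adjusted p = 0.00785). Dnaja3, of mitochondria, was not called (log2 fold change 0.16).

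Stretches before listed RefSeq starts of Dnaja4 and Dnaja2 are shown because these genes of 1 class went opposite ways. The Dnaja4 stretch (chr9:54699414-54699513, plus strand, RefSeq, GRCm38.p6) ends 46 bases before such a start and lies within the annotated gene (chr9:54698873-54716315) but in no annotated exon, and the Dnaja2 stretch (chr8:85555362-85555511, minus strand) ends at its start. Capitals mark a pair of units as above.
Dnaja4: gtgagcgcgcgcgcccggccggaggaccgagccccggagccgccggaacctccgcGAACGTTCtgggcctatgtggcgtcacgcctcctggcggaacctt
Dnaja2: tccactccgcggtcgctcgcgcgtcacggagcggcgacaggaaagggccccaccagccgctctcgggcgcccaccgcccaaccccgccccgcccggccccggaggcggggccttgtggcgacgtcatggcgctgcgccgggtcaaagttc
The Dnaja4 stretch held 1 pair and the Dnaja2 stretch 0, which says only that these letters are not in that window.

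In class B, Dnajb4, an HSP70 partner abundant in muscle, stood at 201, 137 and 145 CPM across the libraries labelled Ctrl and 98.4, 108 and 89.0 CPM in those labelled cKO. No library of one group entered the range of the other (log2 fold change -0.71 ± 0.16, SE, edgeR adjusted p = 0.0191), but the call was lost without cKO 1 (adjusted p = 0.0645) or cKO 3 (0.072). Dnajb12, which sits in the membrane of the endoplasmic reticulum and takes part in protein degradation there, stood at 40.6, 46.6 and 47.3 CPM against 80.9, 60.1 and 75.8 CPM. Each library labelled cKO exceeded each labelled Ctrl (log2 fold change 0.69 ± 0.13, SE, edgeR adjusted p = 0.0104). Dnajb2, a J-domain protein that binds ubiquitin, was called with a log2 fold change of -0.28, a call lost in each of the 6 fits without a library. Dnajb6, which suppresses aggregation and is mutated in a limb-girdle muscular dystrophy, stood at 92.9, 90.4 and 93.5 CPM against 108, 95.6 and 105 CPM and was not called (log2 fold change 0.16 ± 0.08, SE, edgeR adjusted p = 0.166). For Dnajb6, 24.4% of the windows also occurred in other transcripts. The other class B genes tested, Dnajb5, Dnajb9, Dnajb11 and Dnajb14, were not called, with log2 fold changes from -0.18 to 0.33.

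In class C, 7 of the 24 genes tested were higher in the libraries labelled cKO, 0 in those labelled Ctrl, and 17 were not called. Dnajc21, which acts in the maturation of ribosomes, stood at 70.4, 69.9 and 69.5 CPM across the libraries labelled Ctrl and 116, 107 and 117 CPM in those labelled cKO. Libraries of each group lay within a narrow range (log2 fold change 0.70 ± 0.07, SE, edgeR adjusted p = 0.00203). Dnajc12, a cochaperone of the aromatic amino acid hydroxylases, stood at 7.05, 9.17 and 10.2 CPM against 16.0, 15.6 and 15.4 CPM, without overlap (log2 fold change 0.83 ± 0.14, SE, edgeR adjusted p = 0.008). The remaining 5 were Dnajc13, of endosomes, Dnajc15 and Dnajc19, of the mitochondrial import motor, and Dnajc27 and Dnajc28, with log2 fold changes from 0.34 to 0.54. These 5 and Dnaja2 lost their call when libraries were scaled by total counts alone, and class C then had 2 genes called higher where the label is cKO and 7 where it is Ctrl, against the same 4.75% and 28.7% (Dnajc1, Dnajc2, Dnajc5, Dnajc8, Dnajc16, Dnajc25 and Dnajc30). The call of Dnajc27 was also lost in each fit without a library other than Ctrl 3, that of Dnajc15 without cKO 1 or cKO 3, and that of Dnajc28 without cKO 3. The summed level of class C was 969.2 ± 31.8 CPM (SD, n = 3) over the libraries labelled Ctrl and 1098 ± 15.9 CPM in those labelled cKO (two-sided exact permutation p = 0.1). Over classes A, B and C together it was 2431 ± 46.8 against 2447 ± 48.0 CPM (exact p = 0.5), with class A at 702.8 ± 21 against 594.5 ± 23.1 CPM (exact p = 0.1) and class B at 759.4 ± 61.0 against 754.2 ± 20.7 CPM (exact p = 1). In an alternative chosen after the values were seen, with total counts alone, the sums of class C (1059 ± 31.5 against 1006 ± 51.5 CPM, exact p = 0.3) and of the classes together (2658 ± 94.8 against 2241 ± 114 CPM, exact p = 0.1) were higher where the label is Ctrl.

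**Figure D3:**
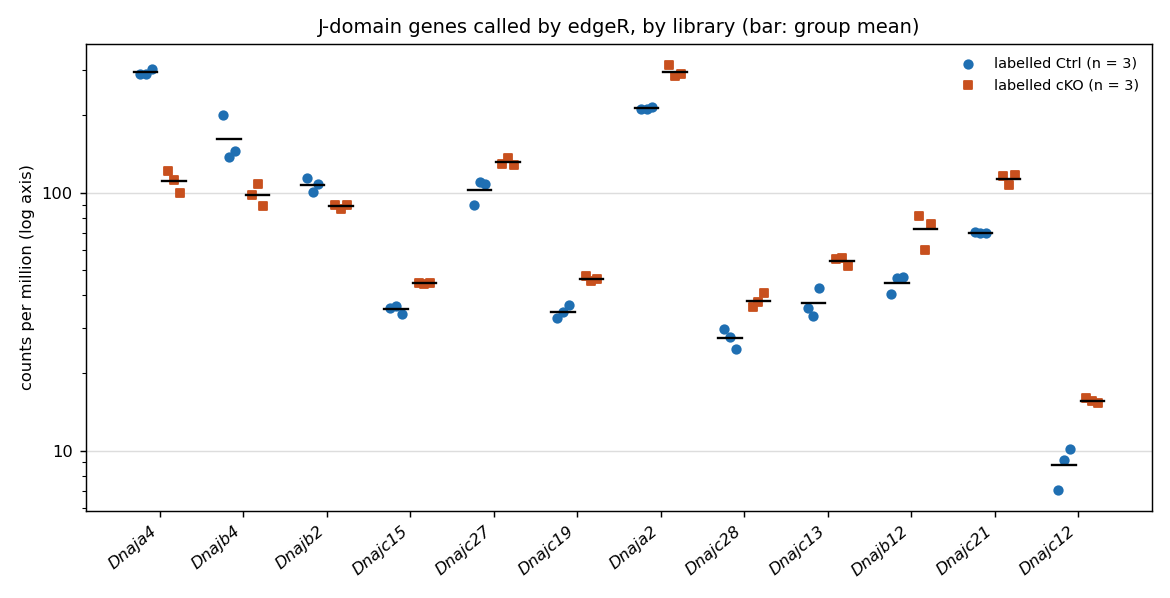
Level of the 12 J-domain members called by edgeR in each library, in CPM on a log axis, ordered by log2 fold change; circles are libraries labelled Ctrl, squares libraries labelled cKO, and bars the group means (n = 3). Dnaja4, Dnajb4 and Dnajb2, on the left, are higher in the libraries labelled Ctrl, and the other 9 are higher in those labelled cKO.

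TRiC is a double ring of 8 different subunits that folds actin and tubulin. Tcp1, which encodes the alpha subunit, stood at 153, 154 and 158 CPM across the libraries labelled Ctrl and 192, 165 and 181 CPM in those labelled cKO, and was not called (log2 fold change 0.21 ± 0.08, SE, edgeR adjusted p = 0.105). Cct3, which encodes the gamma subunit, was the 1 subunit called, at 101, 97.8 and 102 CPM against 84.4, 74.9 and 71.8 CPM (log2 fold change -0.38 ± 0.08, SE, edgeR adjusted p = 0.0179). This call was lost without Ctrl 1, Ctrl 2 or cKO 3. Cct2, Cct4, Cct5, Cct6a, Cct7 and Cct8 lay between -0.11 and 0.13 on the log2 scale, none called. The summed level of the TRiC genes was 1004 ± 30.7 CPM (SD, n = 3) against 1034 ± 69.4 CPM (exact p = 0.6), and 1097 ± 37.6 against 944.4 ± 6.31 CPM with total counts alone (exact p = 0.1). Of the 8 subunits, 6 had a log2 fold change above 0 with TMM factors and 0 had one with total counts alone. The share of all genes below 0 went from 51.7% to 76.9% with the same change. Cct8l1, a copy of a subunit gene with 1 exon, was called on 6, 4 and 3 counts across the libraries labelled Ctrl and 15, 11 and 15 counts in those labelled cKO (log2 fold change 1.63 ± 0.39, SE, edgeR adjusted p = 0.0246). The call on these few counts did not hold in 4 of the 6 fits with a library removed, namely without Ctrl 2 (adjusted p = 0.0834), Ctrl 3 (0.0606), cKO 1 (0.0861) or cKO 3 (0.0791), nor with DESeq2's Wald test (0.063). Unc45b, the myosin chaperone, stood at 302, 300.3 and 366 CPM against 435, 341 and 433 CPM. Its groups overlapped and it was not called (log2 fold change 0.32 ± 0.13, SE, edgeR adjusted p = 0.122), except without cKO 2 (adjusted p = 0.0418).

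Ratios between related members within 1 library do not depend on how libraries are scaled, and several separated the groups. These pairs were chosen after the values were seen, are ratios of CPM without correction for length, and are given as a description of the groups. The sum of Hspa1a and Hspa1b over Hspa8 was 0.179, 0.102 and 0.187 in the libraries labelled Ctrl and 0.0128, 0.0387 and 0.0117 in those labelled cKO. The lowest library labelled Ctrl lay above the highest labelled cKO. The ratio of Dnaja4 to Dnaja2 was 1.37, 1.36 and 1.41 in the libraries labelled Ctrl and 0.387, 0.395 and 0.348 in those labelled cKO. Hsp90aa1 over Hsp90ab1 was 0.0721 ± 0.0148 (SD, n = 3) against 0.0372 ± 0.0131, with Ctrl 2 at 0.0551 and cKO 2 at 0.0522. Bag3 over Bag1 was 1.95 ± 0.203 against 1.14 ± 0.0985, and Cct3 over Tcp1 was 0.649 ± 0.0128 against 0.430 ± 0.0292. Dnajb4 over Dnajb5 and Hspa5 over Hspa9 also did not overlap between groups.

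**Figure D4:**
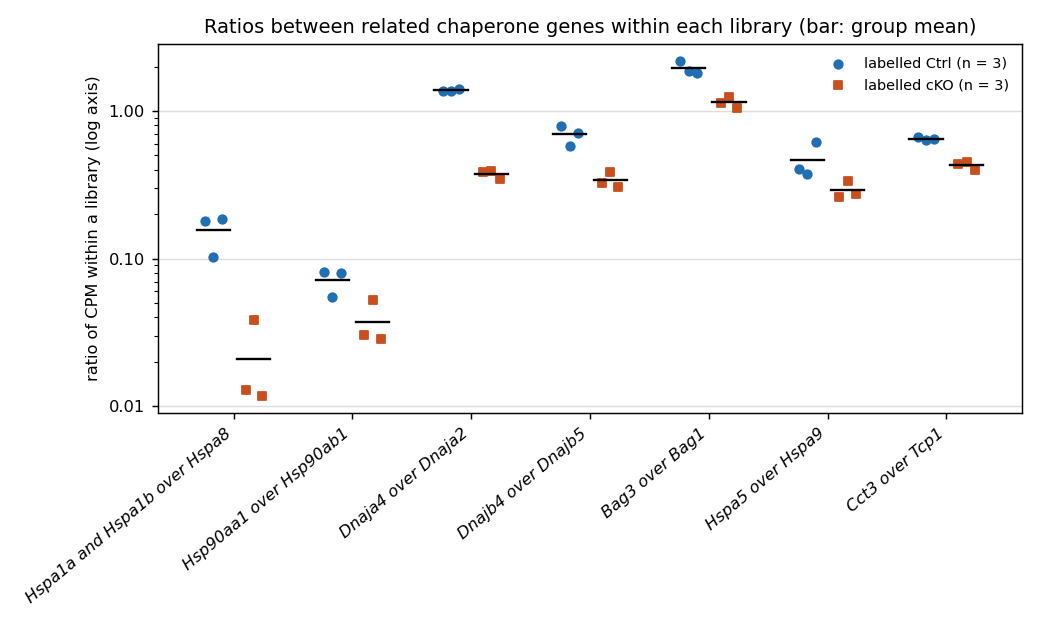
Ratio of CPM between related members within each library, on a log axis; circles are libraries labelled Ctrl, squares libraries labelled cKO, and bars the group means (n = 3). In all 7 ratios the libraries labelled Ctrl lie above those labelled cKO, by a narrow margin for Hsp90aa1 over Hsp90ab1.

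Motifs were searched in RefSeq promoters from 250 bases before to 50 bases after each listed start, on both strands. The table held 66 of the 82 members and 27025 genes in all, and a gene was counted where any of its listed starts had the motif. A pair of units occurred in 17.0% of all genes, in 6 of 14 members higher in the libraries labelled Ctrl (Bag3, Dnaja4, Dnajb4, Hspa1a, Hspa1b and Hsph1), in 2 of 9 higher in those labelled cKO (Cct8l1 and Dnajc27) and in 8 of 37 not called. This motif was chosen after the values were seen, so its counts are a description and no support for a direction. Hspa1a and Hspa1b, nearly identical over the stretches above, are counted separately. Of the heat-inducible members, 7 of 8 in the table held it, Hsp90aa1, Hsp90ab1 and Hspa8 being missing. A heat shock element of 3 units in alternation (GAANNTTCNNGAA or its reverse complement), which contains a pair, occurred in 0.662% of all genes and in 4 members, namely Hsph1, which was called, and Dnajb6, Hspd1 and Hspe1, which were not. Exons of Hspd1 and Hspe1 overlap on opposite strands, and each gene had 2 such elements and 3 pairs. These may be the same letters counted for each gene. The endoplasmic reticulum stress element (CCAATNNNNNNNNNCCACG) occurred in 0.137% of all genes and in 3 members, Hspa5, Hsp90b1 and Dnajc3, of which 1 was called. The elements of Hspa5 (chr2:34772019-34772048, plus strand) and Hspd1 (chr1:55088053-55088082, minus strand) are shown as an example of each kind and lie within annotated exons of these genes, with the stress element and the inverted units in capitals.
Hspa5: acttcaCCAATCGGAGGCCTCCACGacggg
Hspd1: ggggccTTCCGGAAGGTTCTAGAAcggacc
Of the members that hold the 3 units, Hsph1 had a log2 fold change of -0.80, Hspd1 of -0.08, Hspe1 of -0.12 and Dnajb6 of 0.16.

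Other genes of the pathway were taken from lists written from general knowledge, and their counts stand beside 11.8% of all genes called higher in the libraries labelled Ctrl and 12.6% in those labelled cKO. With total counts alone, under which 28.7% of all genes were called higher where the label is Ctrl and 4.75% where it is cKO, the calls on the endoplasmic reticulum list (15), among co-chaperones (10) and on the mitochondrial list (5) were all higher where the label is Ctrl. In the unfolded protein response of the endoplasmic reticulum, 7 of 20 genes were higher in the libraries labelled Ctrl and 2 in those labelled cKO (Sec61b and Sil1). The 7 were Canx, Creld2, Ddit3, Hyou1, Manf, Pdia3 and Sdf2l1, with log2 fold changes from -1.58 for Sdf2l1, which assists BiP, to -0.53 for Hyou1, the HSP110 of this compartment. The number called on this list, 9, was 5 without Ctrl 1, 6 without Ctrl 3 and 3 without cKO 1 or cKO 3. Of 24 co-chaperones of HSP70 and HSP90, 1 was higher in the libraries labelled cKO (Sgta) and 2 in those labelled Ctrl (St13, which holds HSP70 in its bound state, at -0.56 on the log2 scale, and Itgb1bp2, the muscle protein melusin, at -0.43). The number called was 1 without Ctrl 1, cKO 1 or cKO 3. Of 18 prefoldin and chaperonin cofactors, 4 were higher in the libraries labelled cKO (Pdcd5, Pfdn1, Pfdn6 and Tbcd) and 1 in those labelled Ctrl (Tbcc). With total counts alone this balance turned, to 1 higher where the label is cKO and 6 where it is Ctrl. With TMM factors, the number called on this list was 2 without Ctrl 1, 3 without Ctrl 2 and 1 without cKO 1 or cKO 3. Of 16 mitochondrial chaperones and proteases, 2 were higher in the libraries labelled cKO (Trap1, the mitochondrial HSP90, and the protease subunit Spg7), and 1 gene was called without Ctrl 1, Ctrl 2 or cKO 1. Of 7 heat shock factors and regulators tested, Hsf2 (-0.30) and Ier5 (-0.82) were higher in the libraries labelled Ctrl and Nr3c1, the glucocorticoid receptor, in those labelled cKO; 1 or 2 genes of this list were called in each fit without a library, 1 in the fits without Ctrl 1, Ctrl 2, cKO 1 or cKO 3.

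Markers of fiber types and other cells moved with these results. All 5 markers of type IIb fibers were higher in the libraries labelled cKO (summed level 118000 to 155700 CPM against 38000 to 73090 CPM in those labelled Ctrl), and both markers of type IIa and IIx fibers, Myh1 and Myh2, were higher in the libraries labelled Ctrl (12930 to 21450 CPM against 7506 to 9646 CPM). Of 7 slow-fiber markers, 3 were called, and the sum ranged from 7888 to 13250 CPM across the libraries labelled Ctrl and from 389.1 to 3443 CPM in those labelled cKO. Of 5 markers of developing or denervated fibers, Myh3 and Myog were higher in the libraries labelled Ctrl and Myh8 in those labelled cKO. Immune markers (3 of 5 tested higher in the libraries labelled Ctrl) summed to 48.3 to 61.4 CPM against 25.3 to 39.6 CPM, with Cd3e below the filter, and 2 of 5 markers of fibro-adipogenic progenitors (961 to 1137 CPM against 718.1 to 989.3 CPM) and 1 of 4 of Schwann cells (137 to 200.5 CPM against 78.1 to 126.6 CPM) were higher in the libraries labelled Ctrl. Of the fibro-adipogenic list, Col3a1 and Ly6a were called, whereas Dcn (log2 fold change 0.20), Smoc2 (0.29) and Pdgfra (-0.18) were not. Its summed ranges overlapped. None (0) of the 3 endothelial, 2 satellite cell and 3 adipocyte markers was called. The part of these differences in the chaperone results was not tested, and in bulk muscle fewer cells of a type and less RNA per cell cannot be told apart.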

How the data were processed

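Total RNA of GP muscle was made into mRNA libraries, 1 per mouse, and sequenced in paired reads of 75 bases. According to the submitters' processing notes, reads were checked with FastQC 0.11.8, trimmed with Trimmomatic 0.39, aligned to mm10 with HISAT2 2.1.0 and counted with featureCounts 1.6.2. The authors deposited 1 table of raw counts per gene for each library. The annotation, the use of strand and the handling of reads with several matches are not given in the sources used here.

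Groups were taken from the labels. The counts were fitted with edgeR 4.0.16 under R 4.3.3 (TMM factors, filterByExpr, glmQLFit and glmQLFTest, Benjamini-Hochberg adjustment over all 14180 genes), and SEs were derived from the F statistic. With 3 mice per group, the edgeR test sets the difference between groups against the spread between mice, moderated over all genes. DESeq2 1.42.0, total counts, 2 other filters, a robust fit, the mouse number as a block and each library left out in turn were alternatives. Both tools were tested on simulated data. Summed levels were compared by exact two-sided permutation.

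Members, lists and pairs were chosen with earlier results of these data known. Named with all values were members with an adjusted p under 0.05 and a fold over 1.5, and 19 members fixed whatever their values; others were given in counts and ranges. The additional values of Dnaja2 and Cct3, and the pair of units, were chosen after the values were seen. Positions came from GENCODE M21 (GRCm38), which held all 82 members. Of the list of J-domain genes without a Dnaj name, only counts are given, and the genes are not reported here.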

Additional observations from a re-analysis of the deposited data

How the results depend on the processing

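Over 376 alternative values of the members named with all values and of Ppapdc3, 342 kept their direction and their side of the threshold, 12 passed the threshold, 13 no longer did and 9 changed direction. With scaling by total counts alone, calls were 4 members higher where the label is cKO and 34 where it is Ctrl (8 with a fold over 2), the members' median log2 fold change was -0.336, and Dnajb6 (-0.10), Dnajc3 (-0.18), Hspa9 (-0.26) and Tcp1 (-0.047) changed direction. Of the 25 calls, 19 were kept. The list of J-domain genes without a Dnaj name had 1 of 5 genes called in the reported fit. The calls on the lists under total counts were 10 co-chaperones, 15 genes of the endoplasmic reticulum, 5 mitochondrial genes and 2 J-domain genes without a Dnaj name. Also called were 7 prefoldin or chaperonin cofactors, 1 higher where the label is cKO and 6 where it is Ctrl. Of the heat shock regulators 2 were called where the label is Ctrl and 0 where it is cKO, so that Nr3c1 lost its call. DESeq2's size factors in edgeR and the robust fit kept all 25 calls, DESeq2's Wald test 23, no filter 23 and at least 10 counts in every library 24. Called members with a fold over 2 higher in the libraries labelled cKO were 0 with that filter and with DESeq2's Wald test, as were J-domain genes without a Dnaj name with no filter, with that filter and with DESeq2's Wald test. Hspa9 was at -0.006 under that filter and ranged from -0.091 to 0.082 with 1 library left out, below 0 without Ctrl 3, cKO 1 or cKO 2, and Hspd1 ranged from -0.136 to 0.019, above 0 without Ctrl 1. The cause was not tested.

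Correlations of deviations between libraries of the same mouse number were 0.0835, -0.215 and -0.00201. Those between different numbers ran from -0.217 to 0.194. The mouse numbers thus gave no sign of pairing, which 3 libraries per group cannot exclude. With the replicate block, 9 members were higher where the label is Ctrl and 7 where it is cKO, 0 of the latter with a fold over 2, and 16 of 25 calls were kept; Hsp90aa1 (adjusted p = 0.0511), Hspa5 (0.0672) and Cct8l1 (0.0596) lost theirs. Calls on the lists were 1 prefoldin or chaperonin cofactor, 5 of the endoplasmic reticulum, 1 mitochondrial gene, 1 heat shock regulator and 0 J-domain genes without a Dnaj name.

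With 1 library left out, 6 to 10 members were higher where the label is cKO (0 to 1 with a fold over 2) and 9 to 15 where it is Ctrl (5 to 6), and the median was -0.127 to -0.0484. The lists gave 1 to 4 co-chaperones, 1 to 6 prefoldin or chaperonin cofactors, 3 to 12 genes of the endoplasmic reticulum, 1 to 2 mitochondrial genes, 1 to 2 heat shock regulators and 0 J-domain genes without a Dnaj name. The lowest counts of members came without cKO 3, when 15 of 25 calls were kept. Hspa1a, Hspa1b, Hspa1l, Hspa2, Hsph1, Hsp90aa1, Dnaja4, Dnajc12, Dnajc21, Dnajb12, Bag2 and Bag3 were called in all 6 of these fits. The few counts of Cct8l1 limit its precision.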
